A study of Mus musculus with 6 samples.

Results

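The Rab GTPases of microglia were followed on 6 gene expression arrays, as all probes whose transcript maps in RefSeq to a symbol made of Rab, 1 or 2 digits and at most a letter. The symbol alone decided membership, and this choice was made with earlier results of these data known. It gave 57 genes with 92 probes, out of 23462 named genes, and 25 of these genes had 1 probe, 29 had 2 and 3 had 3. RefSeq lists 59 symbols of this form, and Rab36 and Rab44 had no tested probe.

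Microglia are the resident macrophages of the brain. They were sorted as live CD45lo Cx3cr1+ CD11b+ cells from young mice, aged 3 months, of the genotypes Bhlhe41 dTomato-Cre/+ (B41HET, 3 samples) and Bhlhe41 dTomato-Cre/dTomato-Cre (B41KO, 3 samples). Bhlhe41 encodes a basic helix-loop-helix repressor of transcription, and the comparison asks what its loss does to gene expression in microglia. The control group is heterozygous and is not wildtype, since both groups carry the dTomato-Cre reporter allele, on 1 copy in B41HET and on both in B41KO. Each sample was pooled from several mice according to the Methods, whereas the labels give N = 3 for each genotype. Every p-value measures only the spread between these samples.

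Rab proteins are small GTPases that mark the membranes of the cell, and each route of transport has its own members. Guanine nucleotide exchange factors (GEFs) load a Rab with GTP, GTPase-activating proteins (GAPs) end its active state, and a lipid added to the end of the protein holds it in the membrane. In phagocytes, Rab5 and Rab7 follow each other on the maturing phagosome, Rab11, Rab4 and Rab14 return receptors to the surface, and Rab27 and Rab3 proteins bring granules to the plasma membrane.

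Few Rab transcripts differed between the genotypes, and each that passed the test was lower in B41KO microglia. Of 92 Rab probes, 6 were called lower (6.52%) and 0 higher, against a background of 3.34% lower and 1.72% higher among all 56601 probes. For a call, limma with Benjamini-Hochberg adjustment over all probes had to give an adjusted p of at most 0.05, and the change had to reach 0.5 on the log2 scale in either direction. The 6 probes belong to Rab3a, Rab3d, Rab4b, Rab6a, Rab20 and Rab28. At an unadjusted p of 0.05 or less, 21 Rab probes were lower and 5 higher, where 12.1% and 11% of all probes were. With the gene read on its brightest probe, 4 of 57 genes were called lower (7.02%) and 0 higher, against 4.01% and 1.44% of all named genes. The median log2 fold change of the 57 genes was -0.003, beside 0.007 for all named genes.

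The number of calls changed with the samples and with the processing. Without B41HET replicate 1 there was 1 Rab probe called lower, the brightest of Rab11b, without replicate 2 there were 0 and without replicate 3 there were 2. Without B41KO replicate 1 there were 4, without replicate 2 there were 2 and without replicate 3 there was 1, while all calls on the arrays fell from 2867 to between 796 and 1487. Each of the 6 probes was lower in B41KO in every one of these fits. With the row of the slide as a block, which compares the B41HET arrays with B41KO replicate 1 alone, the 6 probes were still lower, by log2 values of -0.95 to -0.40, and none was called (adjusted p = 0.0516 to 0.198 in limma). With normexp background correction, Rab20 (-0.40), Rab3a (-0.43), Rab3d (-0.46) and Rab6a (-0.33) kept an adjusted p under 0.05 but not the fold threshold.

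**Figure D1:**
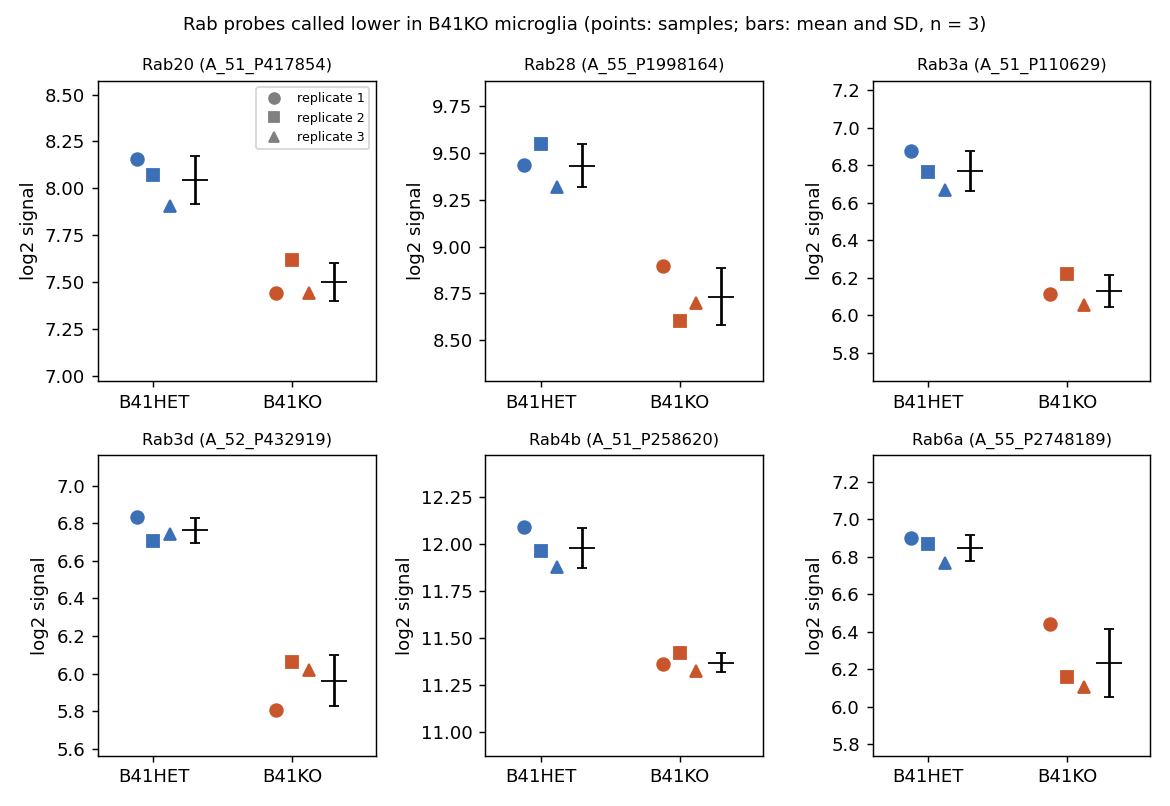
The 6 Rab probes called lower in B41KO microglia, with the quantile-normalized log2 signal of each sample on the vertical axis (3 B41HET and 3 B41KO samples, marked by replicate) and the mean with its SD beside them. In every panel the 3 B41KO samples lie below the 3 B41HET samples. The axes do not start at 0 and differ between panels.

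Signal strength did not keep most members from being read. Of the 57 genes, 52 had their brightest probe well above background on all 6 arrays, Rab13 on 5 of them, and Rab3c, Rab30, Rab39b and Rab40b on none. Among probes above background on all arrays, 6 of 81 Rab probes (7.41%) were called lower, beside 4.19% of all such probes. For 31 of the 52 genes above background on all arrays (59.6%) the 95% confidence interval of the log2 fold change lay wholly between -0.5 and 0.5, as it did for 53.4% of all such named genes. For the rest of the 52 the interval reached a change of the size that a call needs.

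More Rab probes were ordered by genotype than were called. In 25 of 92 Rab probes (27.2%) all 3 B41KO samples lay below all 3 B41HET samples, where the background is 15.2%. The opposite order was seen in 8 (8.7%), against 14.5%. Among probes above background on all 6 arrays, 25 of 81 Rab probes lay below and 8 above. Of all 38226 such probes, 7162 lay below and 7115 above. On the brightest probes the counts were 16 of 57 genes below (28.1%) and 6 above (10.5%), against 18% and 14.2% of all named genes. These probes are not independent, since 32 of the genes had several.

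The genes were then read in role groups. Of all named genes 4.01% were called lower, so 1 call in a group this small says little about the group. Among the 8 genes of early endosomes and uptake, 1 was called lower. It was Rab20, which acts in early endosomes and phagosome maturation of macrophages and had 1 probe. Rab20 gave log2 signals of 8.16, 8.07 and 7.91 in B41HET and of 7.44, 7.62 and 7.44 in B41KO. The highest B41KO sample stood 0.29 below the lowest B41HET sample. This was a change of -0.54 on the log2 scale (standard error, SE, of 0.10, n = 3 per genotype), with an adjusted p of 0.0367 from limma with Benjamini-Hochberg adjustment. The call was lost with any 1 of the 6 samples left out, at adjusted p-values from 0.0611 to 0.125.

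Rab21, an endosomal Rab that binds integrins, had the most negative value of that group. Its signals of 7.59, 7.49 and 7.36 in B41HET and of 6.74, 7.14 and 6.67 in B41KO did not overlap, but its B41KO samples spread more widely. Its log2 fold change of -0.63 did not pass the test (adjusted p = 0.0674, limma with Benjamini-Hochberg adjustment). The core Rab of early endosomes, Rab5a, gave 6.23, 6.38 and 6.06 in B41HET and 6.33, 6.38 and 6.18 in B41KO. The genotypes overlapped, and its log2 fold change was 0.07 (95% confidence interval -0.20 to 0.34). Rab5c was at 0.14 and Rab5b at 0.12 on its brightest probe and -0.44 on its other probe, none of them called. Rab24, a Rab linked to autophagy and among the 5 Rab genes of highest signal, gave 12.87, 12.85 and 12.70 against 12.87, 12.84 and 12.87, a log2 fold change of 0.05 whose interval ran from -0.14 to 0.24.

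Bhlhe41 belongs to the family of repressors that bind the E-box CACGTG, so the promoters of the Rab genes were searched for these letters, which read the same on both strands. Promoters ran from 250 bases before to 50 bases after each start in RefSeq (GRCm38.p6), and 60 promoters of 48 Rab genes were found. The motif stood in 6 of them (10%), beside 7.15% of all 32851 promoters. The 6 genes were Rab5a, Rab20, Rab21, Rab23, Rab24 and Rab27a, and Rab20 alone among them was called. A match is a description of the sequence and no measured binding site. The remaining Rab genes had no promoter in the set and were not searched, and sites outside this window would be missed. The other called genes can therefore not be said to lack an E-box. The Rab20 sequence is shown in full before its start, as the called gene with a match, at chr8:11478641-11478890 on the minus strand, with the E-box in capitals 46 bases before the start.
Rab20 upstream: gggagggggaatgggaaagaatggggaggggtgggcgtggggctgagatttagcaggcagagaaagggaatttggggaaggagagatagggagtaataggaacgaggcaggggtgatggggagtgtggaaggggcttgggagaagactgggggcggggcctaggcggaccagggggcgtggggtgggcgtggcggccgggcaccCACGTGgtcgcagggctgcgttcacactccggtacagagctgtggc
The other matches are shown with the bases around them, again 5′ to 3′ with the E-box in capitals, so that the called Rab20 can be set beside genes that were not called.
Rab21, 30 bases before the start, chr10:115315606-115315631, minus strand: ccaccgcggtCACGTGacgaggggtg
Rab5a, 235 bases before the start, chr17:53478989-53479014, plus strand: ttggagaagaCACGTGacgcaacccc
Rab5a, 95 bases before the start, chr17:53479129-53479154, plus strand: ccggggatgtCACGTGacttcggccc
Rab23, 218 bases before the start, chr1:33719668-33719693, plus strand: tcagtgctacCACGTGagtctcaggt
Rab27a, 246 bases before the start, chr9:73063898-73063917, plus strand: cttgCACGTGctcctccgtc
Rab24, from base 3 of the transcript, chr13:55321963-55321988, minus strand: gcgcccgcgtCACGTGaccgggcgtc

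Of the 9 genes of endosomal recycling, 0 were called on their brightest probe, and 1 of their 18 probes was called lower. That probe was A_51_P258620 of Rab4b, a Rab of fast recycling from early endosomes. It gave 12.09, 11.96 and 11.88 in B41HET and 11.36, 11.42 and 11.32 in B41KO. All B41KO samples lay close together and below all B41HET samples, and the mean log2 difference was -0.61 (SE 0.08, adjusted p = 0.0185, limma with Benjamini-Hochberg adjustment). The brightest Rab4b probe, A_66_P135311, gave 12.08, 11.98 and 12.03 in B41HET and 11.96, 11.90 and 11.95 in B41KO, which is -0.09 on the log2 scale (SE 0.07, adjusted p = 0.493). The call for this gene therefore depended on the probe. The difference between the called probe and the brightest probe within each sample averaged -0.05 in B41HET and -0.57 in B41KO on the log2 scale. The call was kept without B41HET replicate 3 (adjusted p = 0.0475 in limma) and lost without any other sample, at adjusted p-values of 0.0562 to 0.079.

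Rab11b, a Rab of the recycling endosome, was measured by 3 probes that all pointed the same way. The brightest gave 12.02, 12.51 and 12.40 in B41HET and 11.84, 11.74 and 11.81 in B41KO, a log2 fold change of -0.52 that did not pass the test (SE 0.14, adjusted p = 0.0963, limma with Benjamini-Hochberg adjustment). B41HET replicate 1 was the lowest of its group, and without it the change was -0.66 and passed (adjusted p = 0.0472). With all 6 samples it also passed under trend and robust variance, at an adjusted p of 0.0498. The second probe was at -0.48 (adjusted p = 0.0451, under the fold threshold) and the dimmest at -0.29 (adjusted p = 0.0644), and in all 3 probes the genotypes did not overlap. Its close relative Rab11a gave 6.45, 6.14 and 6.01 against 6.14, 6.14 and 5.86, which overlapped, with a log2 fold change of -0.15 (95% confidence interval -0.52 to 0.21). It moved to -0.03 without B41HET replicate 1, to -0.25 without replicate 3 and to -0.06 without B41KO replicate 3.

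Rab14, which works between endosomes and Golgi, had 3 probes of unlike sign. The brightest gave 12.31, 11.97 and 12.17 in B41HET and 11.88, 11.80 and 11.99 in B41KO, a log2 fold change of -0.26, while the other two were at 0.12 and 0.14. None of the 3 was called. Rab35, a Rab of recycling and of phagocytic membranes, was higher in all 3 B41KO samples (8.82, 8.83 and 8.68 against 8.67, 8.40 and 8.31), but its log2 fold change of 0.32 missed the threshold (adjusted p = 0.177, limma with Benjamini-Hochberg adjustment).

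None of the 13 genes of late endosomes, lysosomes and lysosome-related organelles was called, and 10 of them had a 95% confidence interval within -0.5 to 0.5, counting Rab39b, which was not above background on any array. Rab7, which guides fusion of late endosomes and phagosomes with lysosomes, gave 12.77, 12.75 and 12.47 in B41HET and 12.17, 12.34 and 12.15 in B41KO on its brightest probe. The genotypes did not overlap, yet its log2 fold change of -0.44 did not pass (SE 0.11, adjusted p = 0.0848, limma with Benjamini-Hochberg adjustment). The other Rab7 probe was at -0.08 with overlapping samples. Rab32, a Rab of lysosome-related organelles and mitochondria, gave 4.33, 4.88 and 4.81 in B41HET and 5.03, 5.36 and 5.31 in B41KO. Its value of 0.56 on the log2 scale had an adjusted p of 0.136 in limma and a 95% confidence interval of 0.12 to 1.00. It was 0.20 with normexp background correction and 0.36 with the slide row block. Rab34, which places lysosomes near the Golgi, had the narrower interval of 0.11 to 0.49 around 0.30 (adjusted p = 0.0829).

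Of the 11 genes of the endoplasmic reticulum and Golgi, 1 was called lower. Rab6a, a Rab of transport at the Golgi, was read by 1 probe at 6.90, 6.87 and 6.77 in B41HET and at 6.44, 6.16 and 6.10 in B41KO. B41KO replicate 1 was the highest of its group and still lay below every B41HET sample. B41KO stood at -0.61 against B41HET on the log2 scale (SE 0.11, adjusted p = 0.0373, limma with Benjamini-Hochberg adjustment). It was -0.72 without B41KO replicate 1 (adjusted p = 0.0372), and without any other sample the call was lost at adjusted p-values of 0.0854 to 0.125. With normexp background correction it was -0.33, under the fold threshold, and with the slide row block -0.40. The paralog Rab6b had 0.20 and 0.01 on its probes and was not called. Rab1b, of transport from the endoplasmic reticulum to the Golgi, had probes at -0.23 and 0.32, and Rab2b had probes at 0.25 and -0.29. None of these probes was called, and the differences between them were not tested.

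Of the 12 genes of secretion and exocytosis, 1 was called lower on its brightest probe, and 2 of their 20 probes were. Rab3a, known for regulated exocytosis in neurons and secretory cells, gave 6.88, 6.77 and 6.67 in B41HET and 6.11, 6.22 and 6.05 in B41KO. The groups were well apart, and the log2 difference was -0.64 (SE 0.09, adjusted p = 0.0192, limma with Benjamini-Hochberg adjustment). The second Rab3a probe pointed the same way at -0.38 (adjusted p = 0.0490), under the fold threshold. The call on the brightest probe was kept without B41HET replicate 3 (adjusted p = 0.0478) and lost without any other sample, at 0.0506 to 0.0814.

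Rab3d, a Rab of secretory granules, was called on its dimmer probe, A_52_P432919, and this was the most negative value of any called Rab probe. The probe gave 6.84, 6.71 and 6.75 in B41HET and 5.81, 6.06 and 6.02 in B41KO. Its difference on the log2 scale was -0.80 (SE 0.10, adjusted p = 0.0128, limma with Benjamini-Hochberg adjustment). The brightest Rab3d probe had 7.58, 7.69 and 7.55 against 7.43, 7.42 and 7.25, which was also lower in every B41KO sample, but its value of -0.24 was not called (adjusted p = 0.174). The call on the dimmer probe was kept without each B41KO sample in turn, at 0.0365 to 0.0442, and lost without each B41HET sample, at 0.0505 to 0.0575.

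The other secretory members stayed under the threshold. Rab27a, which tethers granules and lysosome-related organelles at the plasma membrane, gave 9.58, 9.46 and 9.52 in B41HET and 9.42, 9.24 and 9.23 in B41KO. Its samples did not overlap, and its log2 fold change was -0.22 (adjusted p = 0.208, limma with Benjamini-Hochberg adjustment), or -0.09 with the slide row as a block. Its other probe was not above background on any array. Rab8a was at -0.23 on its brightest and 0.10 on its other probe, and Rab10 at 0.30.

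The last 4 genes act at the cilium or are less studied, and 1 of them was called lower. Rab28, known from the cilium of photoreceptors, had the most negative value of any Rab gene on its brightest probe. It gave 9.43, 9.55 and 9.32 in B41HET and 8.90, 8.60 and 8.70 in B41KO. Its log2 difference was -0.70 (SE 0.11, adjusted p = 0.0259, limma with Benjamini-Hochberg adjustment). A second probe also lay at -0.70, but its B41KO samples spread from 7.25 to 7.95 and it did not pass (adjusted p = 0.0879), and the dimmest was at -0.13. The call was kept without B41KO replicate 1 (adjusted p = 0.0440) and lost without any other sample, at 0.0598 to 0.0949. Rab40c, a Rab with a ubiquitin ligase domain, was at -0.50 with an adjusted p of 0.168, and its B41KO replicate 3 was the lowest sample.

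**Figure D2:**
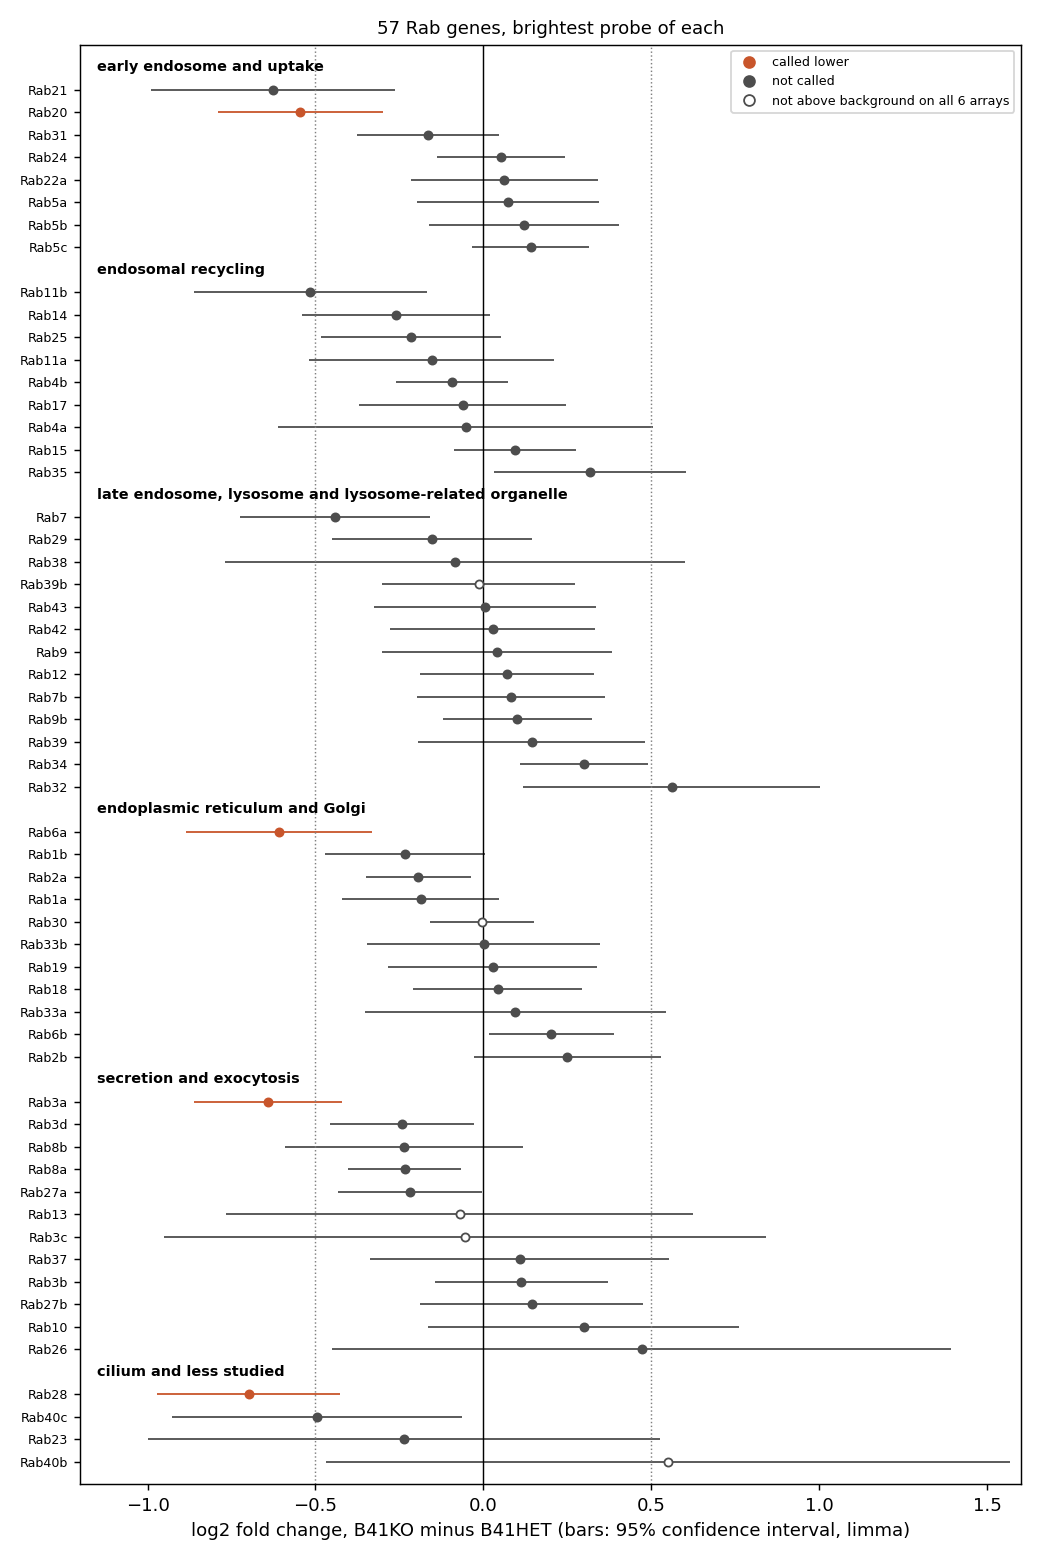
The log2 fold change of B41KO against B41HET for the brightest probe of each of the 57 Rab genes, grouped by role, with bars for the 95% confidence interval. Rab20, Rab6a, Rab3a and Rab28 were called lower and no gene was called higher. Open points mark genes whose probe was not above background on all 6 arrays, and dotted lines mark the fold threshold.

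The agreement of probes for one gene was then read across the family. Several probes were present for 32 genes, and for 26 of these all probes were above background on every array. Among the 26, the probes had both signs for 9 genes, and their log2 fold changes lay more than 0.5 apart for 6. The median distance between the most negative and most positive probe was 0.22. In 4 genes (Rab28, Rab3a, Rab3d and Rab4b) some probes were called and others not, and 0 genes were called on all of several probes. Which part of each transcript a probe reads was not analysed here.

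**Figure D3:**
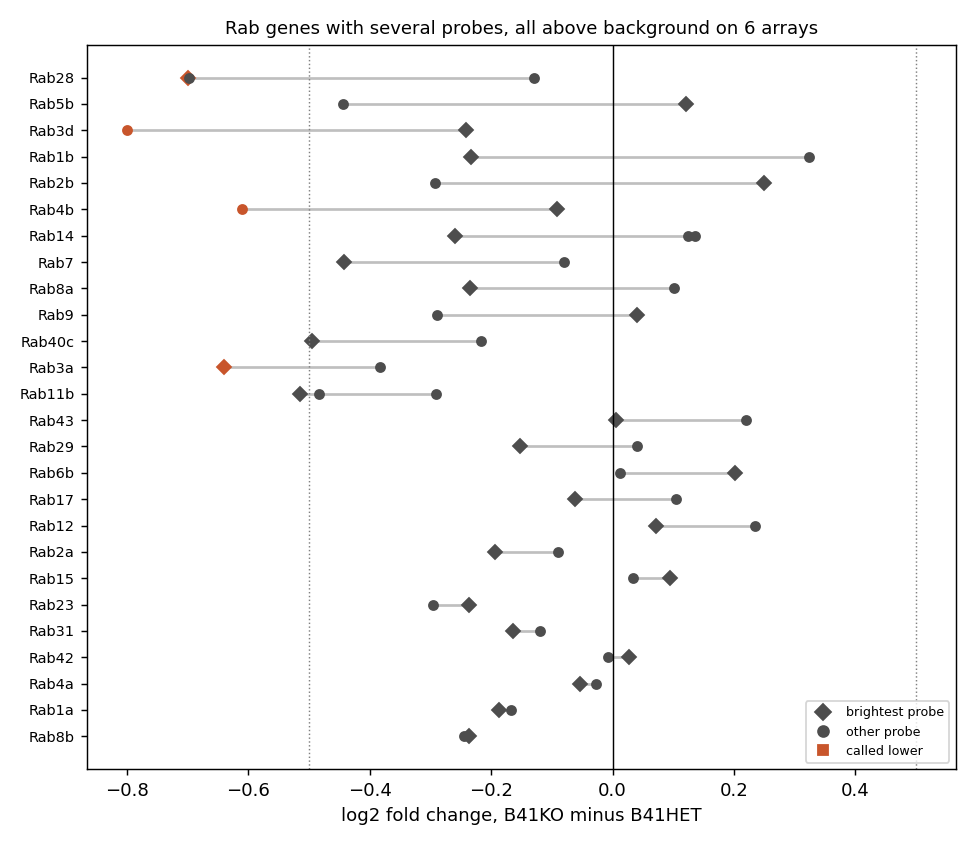
The log2 fold change of every probe of the 26 Rab genes that had several probes, all above background on 6 arrays, with a line joining the probes of a gene. Diamonds are the brightest probe and orange points are called lower. The called Rab4b and Rab3d probes lie near -0.6 and -0.8 while the brightest probes of these genes lie near -0.1 and -0.2.

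The proteins that switch, deliver and bind Rabs gave 10 called lower and 2 called higher of 143 genes on their brightest probe, 6.99% and 1.4%, against 4.01% and 1.44% of all named genes. The 37 GAPs held 5 of the lower calls and 0 of the higher ones, and their median log2 fold change was -0.17, beside 0.007 for all named genes. They were Tbc1d2b at -0.87, Tbc1d10b at -0.74, Tbc1d4 at -0.66, Evi5l at -0.56 and Rabgap1l. The Rabgap1l probe was well above background in all 3 B41HET samples but in 1 of 3 B41KO samples, so its value of -1.40 is only a rough one. Tbc1d2b, a GAP with the TBC domain, had the lowest adjusted p of these lists, 0.00427 in limma with Benjamini-Hochberg adjustment. Its samples read 7.66, 7.59 and 7.65 in B41HET and 6.79, 6.76 and 6.75 in B41KO. Tbc1d4, which controls glucose transporter traffic in fat and muscle, had 8.82, 8.88 and 8.75 against 8.27, 8.22 and 7.97.

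The 35 GEFs had 1 call in each direction, where 4.01% of all named genes were called lower and 1.44% higher, and a median of -0.06. Rabgef1, an activator of Rab5, gave 6.84, 6.76 and 6.87 in B41HET and 6.25, 6.06 and 6.13 in B41KO, or -0.67 on the log2 scale (SE 0.08, adjusted p = 0.0133, limma with Benjamini-Hochberg adjustment). Madd, an activator of Rab3 and Rab27 proteins, was higher in B41KO, with 6.83, 6.68 and 6.66 against 7.61, 7.54 and 7.49 and a difference of 0.82 on the log2 scale (SE 0.08, adjusted p = 0.00839). Among the 6 measured Rab3 and Rab27 genes, Rab3a was called lower on its brightest probe and Rab3d on its dimmer probe alone. The others were not called, with Rab27a at -0.22, Rab3c at -0.05 and not well above background, Rab3b at 0.11 and Rab27b at 0.14.

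Of the 7 genes that attach the lipid and carry Rabs to membranes, 2 were called lower, where 4.01% of all named genes were. Among them, Rabggta, the alpha subunit of the Rab prenylating enzyme, gave 10.24, 10.24 and 10.18 in B41HET and 9.81, 9.72 and 9.50 in B41KO, at -0.54 (adjusted p = 0.0369, limma with Benjamini-Hochberg adjustment). The beta subunit Rabggtb was at -0.44 and was not called (adjusted p = 0.0789).

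The 64 effectors and kinases had 2 calls lower and 1 higher, with a median of 0.02. Of all named genes 4.01% were called lower and 1.44% higher, so these counts do not set the list apart. Rab11fip2, a partner of Rab11 at the recycling endosome, was at -0.95 (SE 0.12) and Exoc6, an exocyst subunit, at -0.83 (SE 0.10), both with an adjusted p of 0.0134 in limma with Benjamini-Hochberg adjustment. Rab11fip5, a member of the same family as Rab11fip2, was higher at 0.87 (SE 0.11, adjusted p = 0.0143). Rab11fip2 had a mean log2 signal of 5.87 ± 0.13 in B41HET and 4.92 ± 0.15 in B41KO (SD, n = 3), and Rab11fip5 one of 7.33 ± 0.16 in B41HET and 8.20 ± 0.10 in B41KO. Neither pair of groups overlapped.

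Each of these 143 genes was read on its brightest probe alone, and the agreement of their probes was not examined. With the mean over a gene's probes, 6 were called lower and 1 higher. The counts over the 143 genes also fell when a sample was left out. Those called lower were 3 without B41HET replicate 1, 3 without replicate 2, 5 without replicate 3, 5 without B41KO replicate 1, 5 without replicate 2 and 6 without replicate 3. Those called higher were 1 without B41HET replicates 2 or 3 or B41KO replicates 1 or 2, and 2 without the others. With the slide row as a block, 0 were called in either direction. For comparison, the 29 measured Arf and Arl GTPases had 0 genes called lower and 1 higher, Arl13a, which was not above background on any array. Among all named genes 4.01% were called lower and 1.44% higher, so 0 lower calls in a list this short does not set it apart.

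**Figure D4:**
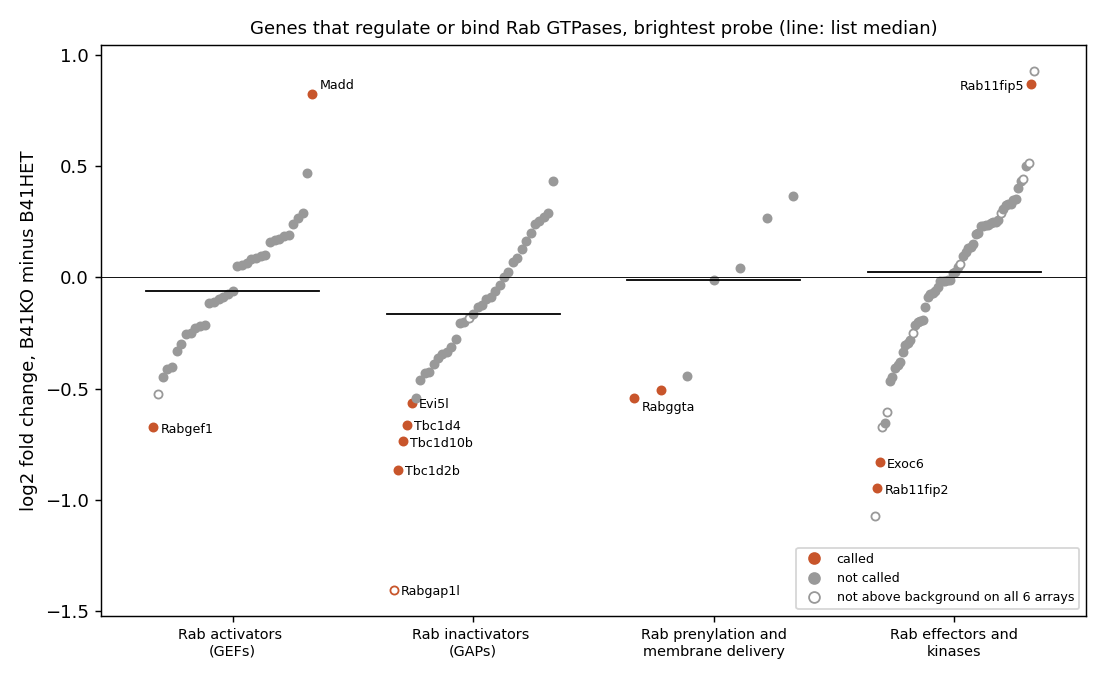
The log2 fold change of B41KO against B41HET for the brightest probe of each gene in the lists of Rab activators (35), inactivators (37), prenylation and delivery genes (7) and effectors and kinases (64), each sorted from low to high, with a line at the median of the list. Called genes that the report describes are named. The inactivators have 5 genes called lower and 0 higher.

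Markers of other cells moved with the genotype in the same samples. Of 12 neutrophil markers, 9 were called lower in B41KO. The log2 of the summed signals of all 12 ranged from 14.94 to 15.10 in B41HET and from 12.63 to 12.71 in B41KO. Each sum in this paragraph adds the signals before log2 is taken, so the brightest markers weigh most. Ltf, a granule protein, was at -3.17 and Mpo, another, at 0.39 and not called. Of 12 border macrophage markers, 5 were called lower (sum 11.37 to 11.49 against 10.88 to 10.995), and Mrc1 and Lyve1 were above background in B41HET samples only. Of 6 endothelial markers, Ly6c1 and Pecam1 were called lower (sum 10.16 to 10.29 against 8.63 to 8.80), and Flt1, Tek and Cdh5 were not above background on any array. Among the other marker lists given here, calls lower were 1 of 6 for B cells (Cd79a), 0 of 8 for mast cells and platelets, 0 of 6 for astrocytes and 0 of 8 for neurons, and none of these was called higher. The sum of the 10 microglia markers lay at 17.26 to 17.39 in B41HET and 17.22 to 17.30 in B41KO, with Fcrls called lower at -0.76. Rab3a, Rab3d, Rab20 and Rab27a are also expressed in secretory or phagocytic cells other than microglia, and the part of other cells in the Rab values was not tested. In such bulk samples, fewer cells of a type and less RNA per cell cannot be told apart.

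The targeted gene did not check the labels. The Bhlhe41 probes were at 0.38 (adjusted p = 0.330) and 0.33 (adjusted p = 0.203) in limma with Benjamini-Hochberg adjustment, so neither was lower in the samples labelled B41KO. The study describes an allele that stops translation, so the transcript is no check of the genotype. All 6 arrays lay on 1 slide, with the 3 B41HET arrays and B41KO replicate 1 in row 1 and the other B41KO arrays in row 2, so that row and genotype were partly confounded. The share of probes read well above background was 70.0% to 75.5% per array, and 0 spots were saturated.

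**Figure D5:**
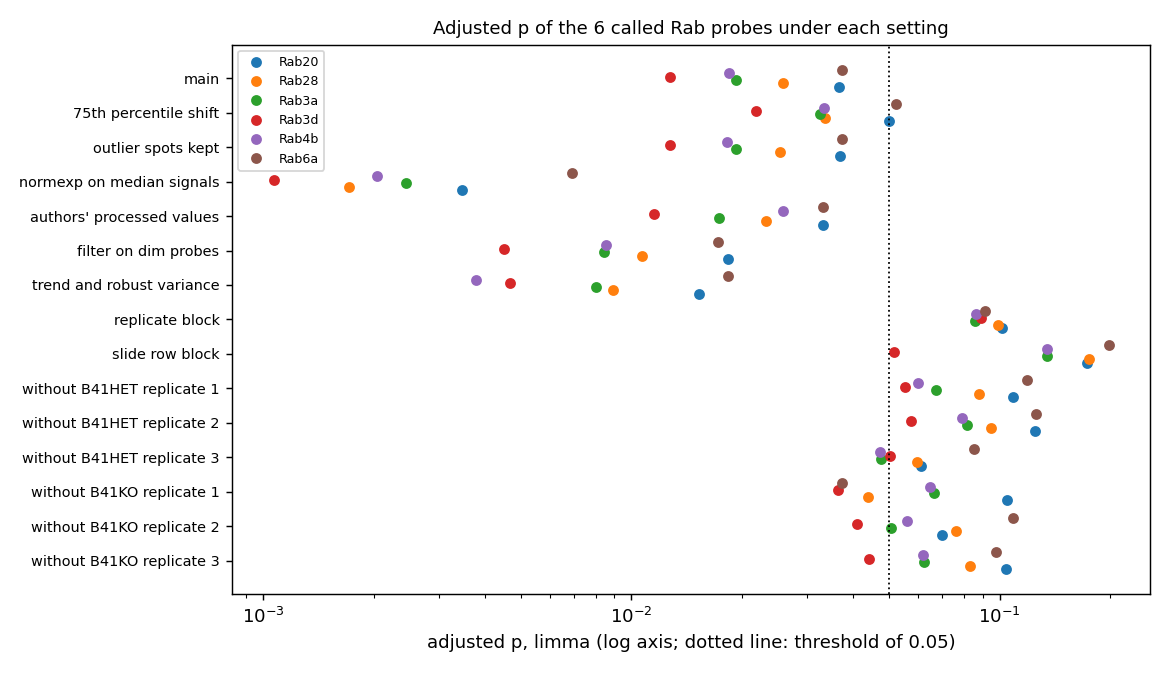
The adjusted p of the 6 called Rab probes under each way of processing the arrays, on a log axis with a dotted line at 0.05. All 6 stayed at or under 0.05 with normexp background correction, the authors' processed values, a filter on dim probes and trend and robust variance, and none did with the replicate number or the slide row as a block.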

How the data were processed

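RNA of sorted microglia from 3 B41HET and 3 B41KO samples, grouped by the genotype in the labels, was hybridised in 1 colour to SurePrint G3 Mouse arrays. The deposited scanner output, made with Feature Extraction 11.5.1.1 per the file headers, holds intensities that were background-subtracted within each array and not normalized between arrays. The table the authors deposited holds processed log2 values and served as an alternative. Control spots (leaving 59305 of 62976 spots) and 95 to 136 outlier spots per array were left out, log2 intensities were quantile normalized and spots of one probe averaged. Probes with values in at least 2 samples per genotype (56601) were tested with limma 3.58.1 in R 4.3.3, with genotype as the only term and Benjamini-Hochberg adjustment, following the normalization, test and threshold in the Methods. Probes were named through RefSeq accessions without versions (33767, or 59.7%). The probe of highest mean signal stood for a gene.

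The members and the lists of regulators, roles and markers were chosen with earlier results of these data known. Sample values are given for every Rab gene with a called probe, the 5 Rab genes of highest signal, those whose probes differ in call, Rab5a, Rab7, Rab11a, Rab27a and Rab32, and at most 5 called genes per regulator list. Other genes were named after their values were seen. In data simulated with these probes' means and spreads, 67% of 200 changed probes among 56601 were called, 77% at a log2 change of 2 and 57% at 1, and 6 of 140 calls were false. Changes smaller than 1 were not simulated, so the share found at the size of the Rab changes is not known. Alternatives were a 75th percentile shift, normexp with an offset of 50 on median signals, the authors' values, a filter for probes above background on 3 arrays, outlier spots kept, trend and robust variance, blocks for replicate or slide row, each sample left out, no fold threshold, and the mean or lowest p over a gene's probes. All arrays were scanned together on 1 slide. Promoters were searched in Python 3.11.15 and figures drawn with matplotlib 3.10.9. Protein sequences were not used here. Some genes and gene lists are not reported here.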

Additional observations from a re-analysis of the deposited data

How the results depend on the processing

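All 6 called Rab probes stayed lower in B41KO under each of the 14 alternatives fitted, and 0 Rab probes were called higher under any of them. The counts of calls did move. Rab probes called lower, 6 in the report, came to 3 with normexp, 0 with the replicate block, 0 with the slide row block and 0 to 4 with 1 sample left out, and rose to 8 with the filter on dim probes, trend and robust variance or no fold threshold. With normexp all 6 kept an adjusted p of 0.05 or less and 4 lost the call to the fold threshold. Rab genes called lower, 4 in the report, came to 2 with the 75th percentile shift, 1 with normexp, 0 with either block and 0 to 2 with 1 sample left out, and rose to 5 with the filter or the mean over probes and 6 with trend and robust variance or the lowest p. With the percentile shift Rab20 and Rab6a missed the threshold at adjusted p-values of 0.0503 and 0.0523 in limma. Regulator and effector genes called lower, 10 in the report, came to 5 with normexp, 0 with either block, 6 with the mean over a gene's probes and 3 to 6 with 1 sample left out, and rose to 14 with no fold threshold or the lowest p. Those called higher, 2 in the report, came to 0 with either block, 4 without a fold threshold, 1 with the mean over probes and 1 to 2 with 1 sample left out. The median of the Rab genes was 0.065 with the percentile shift, where that of all named genes was 0.10, and -0.0386 to 0.0349 with 1 sample left out. Rab24 (-0.00255) and Rab5a (-0.00549) turned sign without B41HET replicate 3, both uncalled, and with 1 sample left out they reached 0.0831 and 0.15 at most. The cause of these moves was not tested. The replicate numbers did not pair the samples, since same-numbered samples deviated together with correlations of only 0.03, 0.01 and 0.05. Over all probes, 2867 were called in the report's fit, 42 with the replicate block and 444 with the slide row block, which rests on 1 B41KO array beside the 3 B41HET arrays. Genes not above background (Rab3c, Rab30, Rab39b, Rab40b) carry no readable change.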
